A study of Rattus norvegicus with 18 samples.

Results

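RNA signals of 9 genes known as p53 targets were followed in rat liver during diethylnitrosamine carcinogenesis, and p53 activity itself was not measured. The genes were Cdkn1a, the gene of the kinase inhibitor p21, together with Mdm2, Btg2, Sesn1, Ccng1, Mgmt, Bax, Gadd45a and Fas. All probe sets that the array annotation assigned to these genes under a current or an older symbol were taken, which gave 16 probe sets of the 31099 on the array, and 9 genes of the 13900 named there. Of these, 15 passed the filter on low signals (a mean above 94.4 over all arrays) and stood among the 18625 probe sets tested. The probe set that did not pass was 1369900_at of Fas, and each of the 9 genes kept at least 1 tested probe set.

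The samples were livers of Sprague-Dawley rats given diethylnitrosamine for 5, 8, 12, 16 or 18 weeks to produce hepatic cancer, and normal liver taken at 0 h. Diethylnitrosamine is a nitrosamine that liver cells activate to a DNA-alkylating agent. Tissue came from the middle of the right lobe, and each of the 6 groups had 3 arrays, 18 in all. The labels describe the arrays within each group as technical replicates, so a p value here covers the spread from array to array and not necessarily that between animals. An age of 12 weeks is labelled throughout and no later untreated liver was analysed here, so time on treatment and age cannot be told apart. The sources used here do not give the dose, route or sex.

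The transcription factor p53 is stabilised after DNA damage and switches on genes that halt the cell cycle, repair DNA or start apoptosis. Its target p21 binds and blocks cyclin-dependent kinases, while its target Mdm2 is the ubiquitin ligase that marks p53 itself for degradation, which closes a negative feedback loop. In liver this pathway is known for its response to alkylating carcinogens, which also draws on Mgmt, the methyltransferase that strips alkyl groups from guanine and that DNA damage induces in rodent liver.

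The start regions of the genes are shown because p53 is known to bind a response element near the start of several of its targets, among other places. RefSeq windows of 300 bases (250 before to 50 after the annotated start, build GRCr8) were at hand for 8 of the 9 genes, all but Bax, and each was searched for the stretch closest to the 20-letter p53 response element consensus, which reads the same on both strands. The closest matches stood in Cdkn1a and Ccng1, each with 1 letter off the consensus. Of all 33469 windows, 24 (0.072%) held a stretch at least as close. In the lines below, capitals are letters that fit the consensus and lower case letters do not; the Sesn1 stretch, the next closest, had 3 letters off, and 6.18% of windows were at least as close.
Cdkn1a, plus strand, chr20:7150731-7150750: GAACATGTCTtGACTTGTTC
Ccng1, minus strand, chr10:25685099-25685118: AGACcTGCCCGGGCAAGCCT
Sesn1, plus strand, chr20:46948547-46948566: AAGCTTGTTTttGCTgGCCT

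The Cdkn1a stretch began 201 bases before the annotated start, the Ccng1 stretch 242 bases before it and the Sesn1 stretch 172 bases before it. The best stretches of Btg2 and Gadd45a had 4 letters off (29.7% of windows were at least as close), and those of Mdm2, Mgmt and Fas had 5 letters off (76.2% of windows). These matches describe letters in these windows and are not measured binding sites. The 250 bases before the start of the 2 closest genes follow, with the matched stretch in capitals.
Cdkn1a, plus strand, chr20:7150682-7150931: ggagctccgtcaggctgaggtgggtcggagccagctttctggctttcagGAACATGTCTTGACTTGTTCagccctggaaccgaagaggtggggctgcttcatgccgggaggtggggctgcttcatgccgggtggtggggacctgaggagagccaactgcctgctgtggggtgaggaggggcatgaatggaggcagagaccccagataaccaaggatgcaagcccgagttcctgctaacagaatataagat
Ccng1, minus strand, chr10:25684877-25685126: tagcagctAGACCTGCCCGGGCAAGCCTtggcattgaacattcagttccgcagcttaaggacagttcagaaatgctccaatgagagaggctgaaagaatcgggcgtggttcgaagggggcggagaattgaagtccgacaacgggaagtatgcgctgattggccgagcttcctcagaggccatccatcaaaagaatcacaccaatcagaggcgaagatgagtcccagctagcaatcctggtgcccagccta

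Cdkn1a had by far the largest change of the 9 genes. Its brightest probe set, 1388674_at, read 176, 296 and 260 on the normal arrays. The signals were 6631, 6658 and 6764 at 5 weeks and 5992, 6131 and 6147 at 8 weeks. They were 2781, 3149.7 and 3022 at 12 weeks, 4038, 4120.1 and 3865 at 16 weeks, and 4835, 4846 and 4910.2 at 18 weeks. No array of any group overlapped with those of another group, in the order 5, 8, 18, 16 and 12 weeks and then normal liver.

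The log2 changes of this Cdkn1a probe set over normal liver were 4.72, 4.58, 3.55, 3.98 and 4.26 at the 5 times (SE 0.12, n = 3 arrays per group, adjusted p between 5.72e-13 and 3.86e-12 in limma), which on the scale of signal + 16 is 26.3-fold at 5 weeks and 11.8-fold at 12 weeks. Throughout, a change was called when its Benjamini-Hochberg adjusted p over all 18625 probe sets was under 0.05 and its size at least 2-fold, a log2 change of 1. The 5 comparisons share the 3 normal arrays. In bulk tissue, fewer cells of a type and less RNA per cell cannot be told apart.

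Between successive times the called step of the brightest Cdkn1a probe set was at 12 weeks, when it fell by 1.03 ± 0.12 against 8 weeks (adjusted p = 6.55e-06). That call stood close to the 2-fold line and was lost with quantile normalization and without 12 week replicate 1. At 8 against 5 weeks its change was -0.13 ± 0.12 (adjusted p = 0.442). The later steps were 0.43 at 16 against 12 weeks (adjusted p = 0.021) and 0.28 at 18 against 16 weeks (adjusted p = 0.092), both under 2-fold. The other Cdkn1a probe set, 1387391_at, averaged 80.0 ± 30.6 in normal liver and then 1909 ± 106, 803 ± 43.5, 1134 ± 72.0, 1743 ± 175 and 1800.2 ± 151 at the 5 treated times (SD, n = 3 each). Its normal mean lay under the filter level of 94.4, which it passed through its treated arrays. It was called higher at all 5 times too, with log2 changes of 3.14 to 4.37, but its lowest treated level stood at 8 weeks, a fall of 1.23 ± 0.16 against 5 weeks (adjusted p = 4.94e-05). The 2 probe sets therefore both showed a large rise and gave different orders of the treated times.

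**Figure D1:**
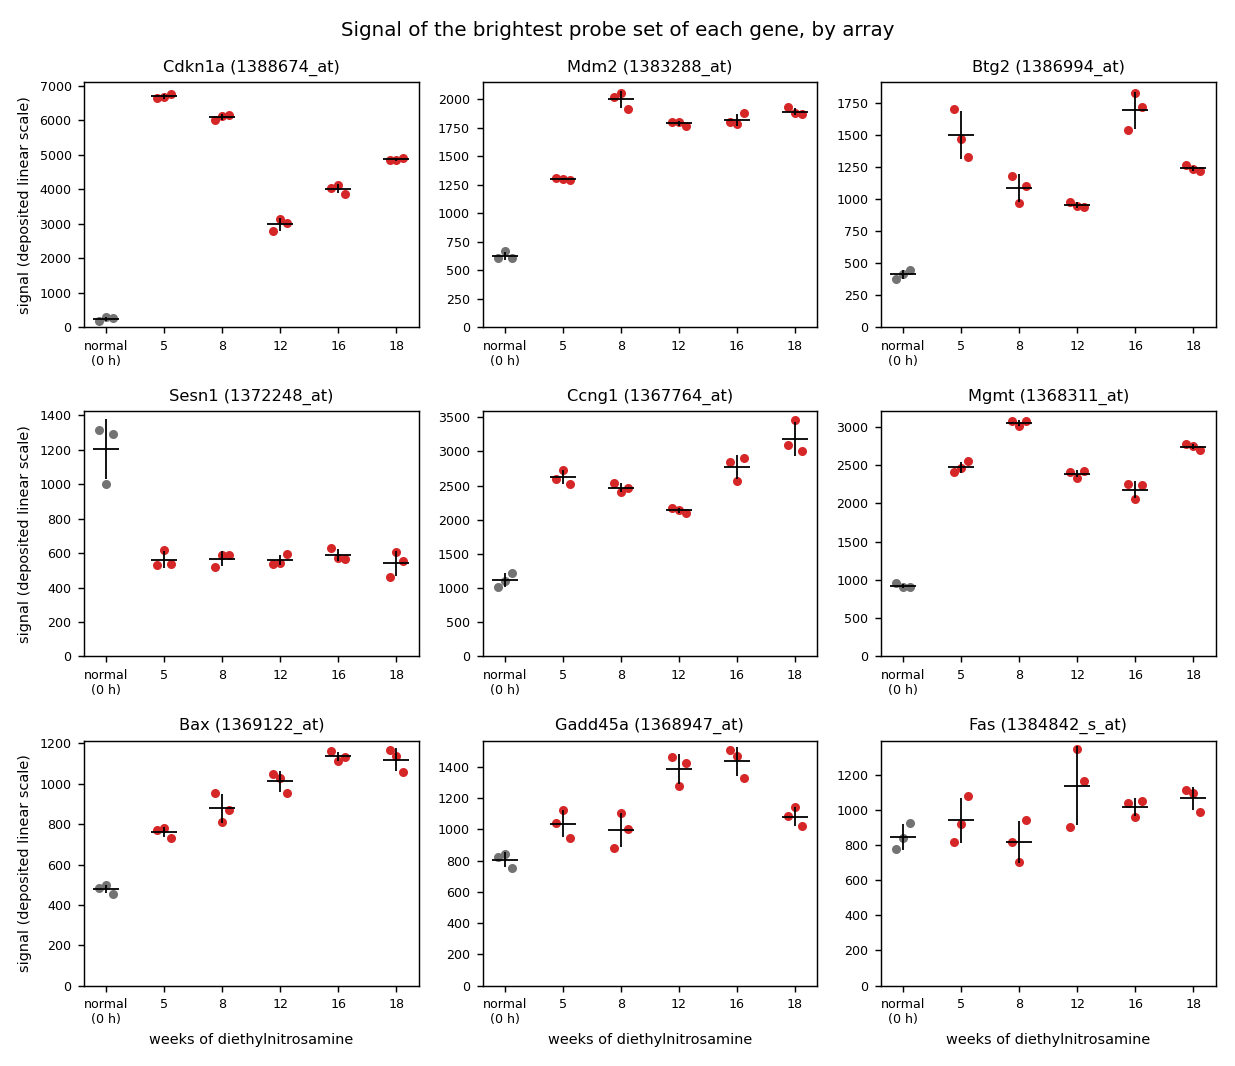
Signal on the deposited linear scale (vertical axes, from 0) of the brightest probe set of each of the 9 genes, in normal liver (grey) and after 5 to 18 weeks of diethylnitrosamine (red). Points are single arrays and the black mark is the mean with its SD (n = 3). Cdkn1a lay between 2781 and 6764 on treated arrays, against 176 to 296 on normal arrays, while Sesn1 lay below normal liver on all treated arrays.

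Counted over the 15 tested probe sets, 7 were called higher and 2 lower at 5 weeks, where 5.18% of all probe sets were called higher and 2.55% lower, 7.73% in either direction. At 8 weeks 7 were higher and 2 lower (7.76% and 5.26% of all, 13.0% together), and at 12 weeks 9 were higher and 1 lower (12.4% and 4.13% of all, 16.5% together). At 16 weeks 10 were higher and 1 lower (15.7% and 5.17% of all, 20.8% together), and at 18 weeks 10 were higher and 2 lower (10.0% and 4.43% of all, 14.4% together). By the brightest probe set of each gene, Cdkn1a, Mdm2, Btg2 and Mgmt were called higher at 5 of 5 times and Sesn1 lower at 5 of 5. Ccng1 was called higher at 4 times and Bax at 3, and Gadd45a and Fas at none. The median change over all probe sets was 0.05, 0.10, 0.18, 0.21 and 0.09 at the 5 times. The 9 genes were chosen with earlier results of these data known, and probe sets of the same gene are counted apart. The shares over all probe sets are therefore given for scale, and the counts are no test of the genes against them.

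Scaling bears on genes close to 2-fold. Centring each array on its median lowered every change against normal liver by the same amount, a shift of -0.10, -0.11, -0.38, -0.47 and -0.19 at the 5 times. It turned no direction of a called change but ended 12 of the 51 calls and added 2, as given beside the genes below. With each array centred, 4 of the 15 probe sets were called higher and 2 lower at 12 weeks, and 6 higher and 2 lower at 16 weeks, where over all probe sets 1244 were then higher and 1799 lower at 12 weeks and 1496 and 2438 at 16 weeks. With quantile normalization 6 were higher and 2 lower at 12 weeks, and 9 and 2 at 16 weeks, where over all probe sets 1562 were higher and 965 lower at 12 weeks and 1929 and 1261 at 16 weeks.

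**Figure D2:**
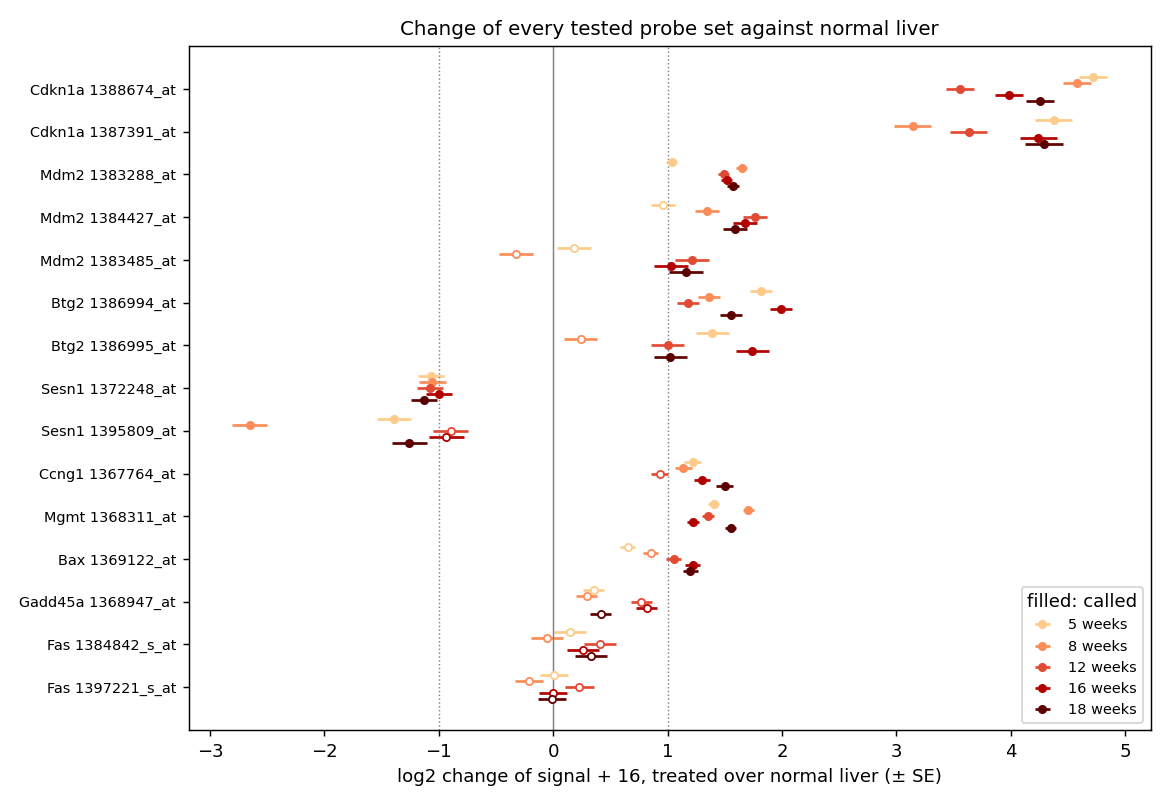
Log2 change of signal + 16 over normal liver (horizontal axis, ± SE from limma, n = 3 arrays per group) for the 15 tested probe sets, with 5 weeks at the top and 18 weeks at the bottom of each row. Filled points were called and dotted lines mark 2-fold. Both Cdkn1a probe sets lay beyond 3 at every time, both Sesn1 probe sets lay below 0, and no Gadd45a or Fas point was called.

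Mdm2, the ubiquitin ligase that keeps p53 in check, rose at every time by its brightest probe set, 1383288_at. It read 609, 669 and 604 on the normal arrays, 1310.0, 1299.7 and 1294 at 5 weeks, and 2022, 2059 and 1913 at 8 weeks. From 12 to 18 weeks its 9 arrays lay between 1764 and 1930.2. The 5 week arrays stood apart below all later treated arrays and above all normal arrays. Log2 changes over normal liver were 1.04, 1.65, 1.49, 1.51 and 1.57 (SE 0.05, adjusted p of 7.31e-10 or less). The call at 5 weeks was lost with arrays centred (0.94), with quantile normalization (0.97) and with a pseudocount of 64 (0.98).

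The other Mdm2 probe sets differed from it in time course. Probe set 1384427_at averaged 459 ± 59.3 in normal liver and 901 ± 32.1, 1188 ± 78.2, 1596 ± 109, 1502 ± 179 and 1415 ± 152 at the 5 times, with its highest mean at 12 weeks. It was called from 8 weeks on, at 1.35 to 1.77, and was at 0.96 at 5 weeks. Probe set 1383485_at was dimmer, averaging 256 ± 33.5 in normal liver and 295 ± 55.1, 202 ± 37.8, 612 ± 45.9, 538 ± 66.3 and 591 ± 33.3 at the 5 times. Its changes were 0.19 at 5 weeks (adjusted p = 0.324) and -0.33 at 8 weeks (adjusted p = 0.0739), with calls of 1.21, 1.03 and 1.16 at 12, 16 and 18 weeks that were all lost with arrays centred (0.83, 0.56 and 0.98). Quantile normalization ended these calls too (0.98, 0.72 and 0.99).

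Ccng1 encodes cyclin G1, a p53 target that recruits a phosphatase to Mdm2. Its single probe set read 1021, 1106 and 1227 on the normal arrays, 2599.8, 2729 and 2526 at 5 weeks, and 2535, 2411 and 2462 at 8 weeks. The signals were 2175, 2145 and 2096 at 12 weeks, 2849.6, 2565.5 and 2903 at 16 weeks, and 3086, 3462 and 3002 at 18 weeks. All 15 treated arrays lay above the normal arrays, with 12 weeks lowest and 18 weeks highest. Log2 changes were 1.22, 1.14, 0.93, 1.30 and 1.50 (SE 0.07), called at every time but 12 weeks, and with arrays centred also lost at 16 weeks (0.83).

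Btg2, an antiproliferative protein that binds the CCR4-NOT deadenylase, read 374, 419 and 445 on the normal arrays by its brightest probe set, 1386994_at. The signals were 1696, 1467 and 1325 at 5 weeks, 1181, 969.9 and 1100.3 at 8 weeks, and 976, 947 and 933 at 12 weeks. At 16 weeks they were 1537, 1822 and 1713, and at 18 weeks 1262, 1234 and 1220.3. The 16 week and 5 week arrays overlapped and lay above all other groups. Changes of 1.81, 1.36, 1.18, 1.99 and 1.55 (SE 0.10, adjusted p of 6.27e-08 or less) were called at all 5 times, the one at 12 weeks only without centring (0.80 with it).

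The other Btg2 probe set, 1386995_at, averaged 511 ± 125 in normal liver and 1339 ± 19.3, 595 ± 25.2, 1028 ± 170, 1712 ± 49.0 and 1038 ± 100 at the 5 times (SD, n = 3). It was called higher at all times but 8 weeks, where its change was 0.24 (adjusted p = 0.165) and its arrays overlapped with normal liver. Its fall of 1.15 ± 0.14 at 8 against 5 weeks was called (adjusted p = 2.64e-05). The calls at 12 weeks (1.0003) and 18 weeks (1.02) stood close to the 2-fold line. Both were lost without normal replicate 1 (0.83 and 0.85), with arrays centred (0.62 and 0.84), with quantile normalization (0.88 and 0.90) and with a pseudocount of 64 (0.94 and 0.96).

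Sesn1, which encodes a sestrin that restrains the growth kinase complex mTORC1, was the only gene of the 9 to be called lower. Probe set 1372248_at read 1317, 1002 and 1289.8 on the normal arrays, and its 15 treated arrays all lay between 459 and 629.6. The treated groups overlapped with each other. Its log2 changes were -1.07, -1.06, -1.07, -1.0005 and -1.13 (SE 0.11, adjusted p of 2.79e-06 or less), close to the 2-fold line, so that without normal replicate 1 the calls at 5, 8 and 16 weeks were lost (-0.9987, -0.99 and -0.93). At 16 weeks the change also missed 2-fold without normal replicate 3 (-0.95), without 16 week replicate 2 (-0.98) or 3 (-0.97), and at 8 weeks without 8 week replicate 1 (-0.99). With a pseudocount of 64 the calls at 8 weeks (-0.9975) and 16 weeks (-0.95) were lost.

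The other Sesn1 probe set, 1395809_at, read 528, 619 and 603 on the normal arrays, 214, 201 and 221 at 5 weeks, and 100.3, 54.4 and 89.0 at 8 weeks. At 12 to 18 weeks its arrays lay between 196 and 314, and all treated arrays lay below all normal arrays. Its changes were -1.39, -2.65, -0.90, -0.93 and -1.26 (SE 0.15), called at 5, 8 and 18 weeks, and with arrays centred also at 12 weeks (-1.28) and 16 weeks (-1.40). The fall of 1.26 at 8 against 5 weeks (adjusted p = 1.94e-05) and the rise of 1.76 at 12 against 8 weeks (adjusted p = 2.29e-07) were both called, and neither was seen in the brightest probe set (0.01 and -0.02).

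Mgmt, the repair methyltransferase, had the smallest SE of the 15 probe sets. Its probe set read 953, 909 and 912 on the normal arrays, 2405, 2458 and 2546 at 5 weeks, and 3076, 3007 and 3069 at 8 weeks. The signals were 2402, 2334 and 2422 at 12 weeks, 2248.5, 2051 and 2237 at 16 weeks, and 2770.3, 2745 and 2698 at 18 weeks. Every treated array lay above the normal arrays with a wide gap, and 8 weeks stood apart on top. Log2 changes were 1.40, 1.71, 1.35, 1.22 and 1.55 (SE 0.05, adjusted p of 1.94e-11 or less). With arrays centred the changes at 12 weeks (0.97) and 16 weeks (0.75) were no longer called.

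Bax, which opens pores in the mitochondrial outer membrane during apoptosis, read 483, 498 and 456 on the normal arrays and 770.1, 780.04 and 733 at 5 weeks. The signals were 953, 811 and 871 at 8 weeks, 1049.8, 1031 and 954 at 12 weeks, 1162, 1114 and 1133 at 16 weeks, and 1169, 1136 and 1056 at 18 weeks. All treated arrays lay above the normal ones and the group means increased up to 16 weeks. Changes of 0.65 and 0.85 at 5 and 8 weeks were under 2-fold (adjusted p = 1.55e-06 and 5.22e-08), and those of 1.05, 1.22 and 1.20 at 12, 16 and 18 weeks were called (SE 0.07). Centring ended the calls at 12 weeks (0.67) and 16 weeks (0.75). The call at 12 weeks was also lost with quantile normalization (0.92) and with a pseudocount of 64 (0.99).

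Gadd45a, a stress protein that binds PCNA and p21, averaged 807 ± 45.3 in normal liver and 1038 ± 88.9, 996 ± 111, 1388 ± 96.9, 1435 ± 95.5 and 1082 ± 61.5 at the 5 times (SD, n = 3). All 15 treated arrays, from 882 to 1506, lay above the highest normal array at 841. Its changes of 0.35, 0.29, 0.77, 0.82 and 0.42 (SE 0.09) had adjusted p between 1.57e-06 and 0.0127 and none reached 2-fold. Fas, the death receptor for Fas ligand, averaged 847 ± 74.3 in normal liver by probe set 1384842_s_at and from 820 ± 120 (8 weeks) to 1139.6 ± 225 (12 weeks) under treatment, and its arrays overlapped with normal liver at 5, 8 and 12 weeks.

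The change of this Fas probe set was 0.41 at 12 weeks (adjusted p = 0.0208) and between -0.05 and 0.33 at the other times (adjusted p of 0.0567 or more). The second Fas probe set, 1397221_s_at, had group means of 129 to 180.2 and changes of -0.21 to 0.23 (adjusted p of 0.122 or more). The untested 1369900_at had group means of 5.98 to 41.3. The suffix of the tested Fas probe sets marks probes that can match more than 1 transcript.

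Among the treated times, 5 of the 15 probe sets varied by at least 2-fold in group mean with an adjusted p under 0.05 in the moderated F test, where 21.7% of all probe sets did so. These were both Cdkn1a probe sets, Mdm2 1383485_at, Btg2 1386995_at and Sesn1 1395809_at. In the steps from time to time, 3 probe sets were called lower at 8 against 5 weeks and none higher (2.03% and 1.03% of all probe sets, 3.07% together). At 12 against 8 weeks 2 were called higher and 1 lower (7.35% and 1.82% of all, 9.17% together). None of the 15 was called at 16 against 12 weeks (0.864% higher and 0.483% lower over all, 1.35% together) or at 18 against 16 weeks (0.226% and 2.74%, 2.96% together). With no fold threshold, 5 of the 15 were higher and 0 lower at 16 against 12 weeks (adjusted p under 0.05 in limma). Over all 18625 probe sets, 2501 were then higher and 1915 lower. At 18 against 16 weeks 1 of the 15 was higher and 3 lower, against 2637 and 4030 over all. Of the 6 calls between times, all but that of the brightest Cdkn1a probe set came from a probe set that was not the gene's brightest.

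The 8 week arrays stood apart in how probe sets of the same gene compared, an examination chosen after the data were seen. The log2 difference between the brightest and the second Cdkn1a probe set was 2.90 ± 0.09 at 8 weeks, against 1.80 ± 0.08, 1.38 ± 0.18, 1.20 ± 0.11 and 1.43 ± 0.13 at 5, 12, 16 and 18 weeks (SD, n = 3). In Sesn1 it was 2.61 ± 0.46 at 8 weeks, against 0.84 to 1.34 at the other treated times. Set against the other treated arrays, the 8 week difference was larger by 1.45 ± 0.21 in Cdkn1a (adjusted p = 3.32e-05), 1.55 ± 0.17 in Sesn1 (adjusted p = 1.5e-06), 0.77 ± 0.12 in Btg2 (adjusted p = 7.42e-05) and 0.40 ± 0.08 in Mdm2 (adjusted p = 0.000969). For Fas it was -0.07 ± 0.16 (adjusted p = 0.739). Of all 2638 genes with 2 such probe sets, 350 (13.3%) passed the same test with a log2 difference of 1, 331 of them larger at 8 weeks, with a median of 0.28 over all genes.

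The array's own RNA controls moved with this. The signal ratio of the 3′ to the 5′ control probe set of Gapdh averaged 2.12 ± 0.05 at 8 weeks, against 1.23 to 1.48 at the other treated times and 1.12 in normal liver, and that of beta-actin was 4.48 at 8 weeks, against 2.29 to 3.52 at the other treated times and 2.36 in normal liver. A larger ratio means less signal from the 5′ end of the transcript. Probe positions were not used here, and the part of these ratios in the member values at 8 weeks was not tested. Without the 8 week arrays, 2 of the 15 probe sets varied among the treated times, Cdkn1a 1388674_at and Mdm2 1383485_at (16.2% of all probe sets).

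**Figure D3:**
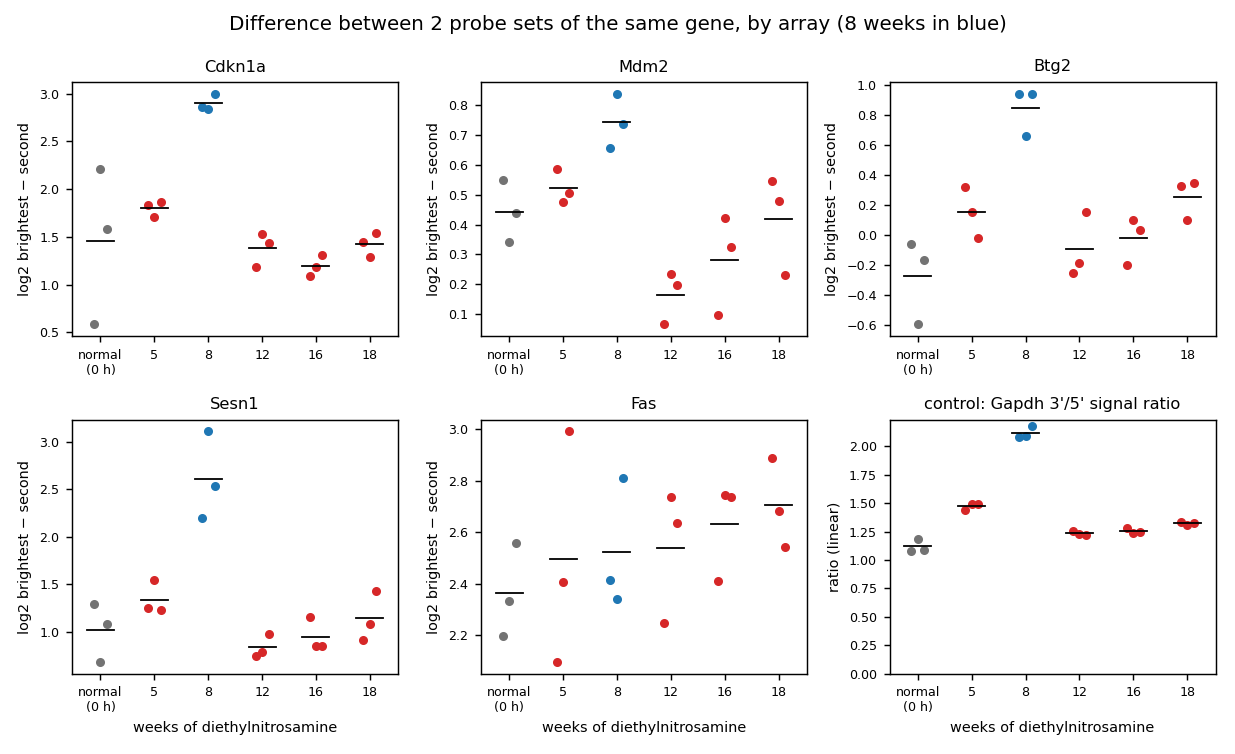
Log2 signal of the brightest minus the second probe set of the same gene on each array (vertical axes) in normal liver (grey) and at 5 to 18 weeks of diethylnitrosamine (red, 8 weeks in blue), and in the last panel the linear 3′ to 5′ signal ratio of the Gapdh control. Bars are group means (n = 3). Cdkn1a and Sesn1 reached means of 2.90 and 2.61 at 8 weeks, and the Gapdh ratio a mean of 2.12.

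Over all 18 arrays the brightest Cdkn1a probe set followed Mgmt (Pearson r = 0.964 on log2 signals), Ccng1 (0.933) and Btg2 (0.906), and ran against Sesn1 (-0.936). Those values span both normal and treated arrays. Over the 15 treated arrays alone they were 0.529 for Mgmt, 0.361 for Ccng1, 0.304 for Btg2 and -0.027 for Sesn1. Gadd45a (-0.812) and Bax (-0.659) ran against this Cdkn1a probe set there. Gadd45a and Bax were highest at 16 weeks, and this probe set was highest at 5 weeks. The other Cdkn1a probe set, 1387391_at, had a different order, with means of 1909 at 5, 803 at 8 and 1743 at 16 weeks. No r was computed for it, so the opposition is given for the brightest probe set alone. The labels do not say whether the arrays of a group come from separate animals, and these values are descriptions.

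The genes most like Cdkn1a in log2 signal over the 18 arrays, among 9812 genes compared, were Ubl5 (r = 0.986), Adam8 (0.986), Mlf2 (0.982), Igfbp4 (0.976), Septin9 (0.973) and Homer1 (0.971). Adam8 was the most extreme of them, with mean signals of 59.8 in normal liver and 2597, 2863, 1245, 1653 and 1447 at the 5 times. All r values given here span normal and treated arrays and do not measure the size of a change. Septin9 averaged 1058 in normal liver and 1795 to 1933 under treatment. Most like Mdm2 were Tsc2, RT1-Bb and Vat1 (r of 0.982 or more), and most like Btg2 were Tnfsf13 and Klf3 (0.962 or more). Nfe2 was most like Sesn1 (0.946) and averaged 94.1 to 148 in treated livers, against 864 in normal liver. Phlda3, Hspb1 and Hras were most like Ccng1 (0.966 or more), RT1-Ba, Inf2 and Igfbp4 most like Mgmt (0.978 or more), and Myadm, Fat1 and Ppp1r14b most like Bax (0.982 or more).

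Part of the other known p53 targets were called higher. Of 38 such genes listed, 27 were on the array under their name and 24 were tested, by the brightest probe set of each. Of these 24, 6 were called higher at 5 weeks, 3 at 8, 4 at 12, 7 at 16 and 7 at 18 weeks, and none was called lower at any time. Over all probe sets the shares called higher were 5.18%, 7.76%, 12.4%, 15.7% and 10.0%. At 8 and 12 weeks the counts stood close to those shares. Their median change was 0.24, 0.34, 0.15, 0.53 and 0.30 at the 5 times, against 0.05, 0.10, 0.18, 0.21 and 0.09 over all probe sets. At 12 weeks the list median was thus the lower of the 2. The split depended on scaling, in an alternative added after seeing the data: with arrays centred, 2 were higher and 4 lower at 12 weeks (Btg1, Plk2, Ppm1d and Rprm), 3 higher and 4 lower at 16 weeks (Btg1, Plk2, Fdxr and Ei24) and 4 higher and 1 lower at 18 weeks (Fdxr). With quantile normalization 4 were higher and 2 lower at 12 weeks (Ppm1d and Rprm), with a median of -0.08. At 16 weeks 5 were then higher and 1 lower, and at 18 weeks 6 and 1 (Fdxr both times).

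Kitlg, the ligand of the receptor Kit, was called at all 5 times, with changes of 1.10, 1.70, 2.22, 2.73 and 2.14 (SE 0.13). A further Kitlg probe set was called at 3 times and another at none. Phlda3, an inhibitor of the kinase Akt, averaged 544 ± 75.8 in normal liver and 1583 ± 94.0, 1407 ± 40.7, 1074 ± 53.8, 1533 ± 31.3 and 1668 ± 57.5 at the 5 times, and was called at all but 12 weeks (0.97). Sfn, the 14-3-3 sigma protein, was at 0.16 at 5 weeks and was called from 8 weeks on, at 1.26 to 2.30. Tp53inp1, a p53-induced nuclear protein, was called at 1.21 to 1.44 at every time but 8 weeks, where it was at 0.36.

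Inhibitors of cyclin-dependent kinases other than p21 rose in part. Of 7 tested, 2, 3, 4, 3 and 2 were called higher at the 5 times and none lower. Among all probe sets 5.18%, 7.76%, 12.4%, 15.7% and 10.0% were called higher and 2.55% to 5.26% lower. Cdkn2a, whose locus encodes the inhibitor p16 and the Mdm2 antagonist p19Arf, had mean signals of 7.20 in normal liver and 22.0, 36.0, 214.9, 206 and 277 at the 5 times. It was called from 8 weeks on (1.16, 3.32, 3.27 and 3.68), with sizes that depend on the pseudocount, since the normal signal lay near 0. Its means in normal liver and at 5 and 8 weeks were under the filter level of 94.4. It passed the filter through its signals from 12 weeks on, so the 8 week call compares signals under that level. Cdkn3, a phosphatase that acts on Cdk2, was called at all 5 times (1.23 to 2.22). Cdkn2c was called at every time but 18 weeks (1.11 to 1.23, and 0.88 at 18 weeks) and Cdkn2b at 12 weeks alone (1.13). Cdkn2b averaged 75.4 in normal liver and 71.0 and 67.5 at 5 and 8 weeks, under the filter level too. It passed the filter through its means of 155 to 184 from 12 weeks on. With arrays centred or with quantile normalization 2 of the 7 were called at 12 weeks and 2 at 16 weeks, as Cdkn2c lost its call at both times and Cdkn2b its call at 12 weeks.

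Part of the cyclins and kinases that p21 binds were called higher. Of 11 tested, 4, 5, 5, 6 and 6 were called higher at the 5 times and none lower, with medians of 0.46, 0.78, 0.67, 1.05 and 1.14. The shares of all probe sets called higher were 5.18%, 7.76%, 12.4%, 15.7% and 10.0%. With arrays centred 5 of the 11 were called at 16 weeks and 5 at 18 weeks, with medians of 0.29 at 12 and 0.58 at 16 weeks. With quantile normalization 4 were called at 8 weeks. Ccna2, the S phase cyclin A2, averaged 62.0 ± 5.47 in normal liver and 294 ± 45.5, 343 ± 40.2, 592 ± 70.1, 635 ± 50.4 and 583 ± 83.9 at the 5 times (changes of 1.98 to 3.06). Cdk1, the mitotic kinase, changed by 1.86 to 2.52, the G1 cyclin gene Ccnd1 by 1.47 to 2.54 and the cyclin E2 gene Ccne2 by 1.67 to 2.69, all called at all 5 times. The normal means of Ccna2 (62.0) and Ccne2 (47.4) lay under the filter level of 94.4, which they passed through treated arrays. Cdk2, Cdk4, Ccnd2, Ccnd3 and Pcna were not called at any time.

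Paralogs of the 9 genes included Bak1, the partner of Bax in pore formation, which was called at all 5 times at 1.13 to 1.66. Of 16 paralogs tested, 3, 3, 4, 4 and 3 were called higher at the 5 times and none lower (with arrays centred 2 were higher at 8, 12 and 16 weeks, and Btg1 was lower at 12 and 16 weeks). With quantile normalization 1 was called at 8 weeks and 2 at 16 weeks. On the deposited scale 5.18%, 7.76%, 12.4%, 15.7% and 10.0% of all probe sets were called higher and 2.55% to 5.26% lower. Bok, a further relative of Bax, was called from 12 weeks on (1.59, 2.15 and 1.70), though its other probe set was not called at any time, and Btg3 was called from 8 weeks on (1.06 to 1.62). Gadd45g was higher early, at 1.17 and 1.31 at 5 and 8 weeks, against 0.50, 0.40 and 0.09 at the later times, whereas Gadd45a had its larger changes at 12 and 16 weeks. Among 12 tested genes of DNA alkylation repair other than Mgmt, the call was of Xrcc1, the scaffold of single-strand break repair, at 8 weeks (1.01), and the list's medians were -0.07 to 0.23. That call was lost with arrays centred and with quantile normalization, each of which left 0 of the 12 called at 8 weeks.

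**Figure D4:**
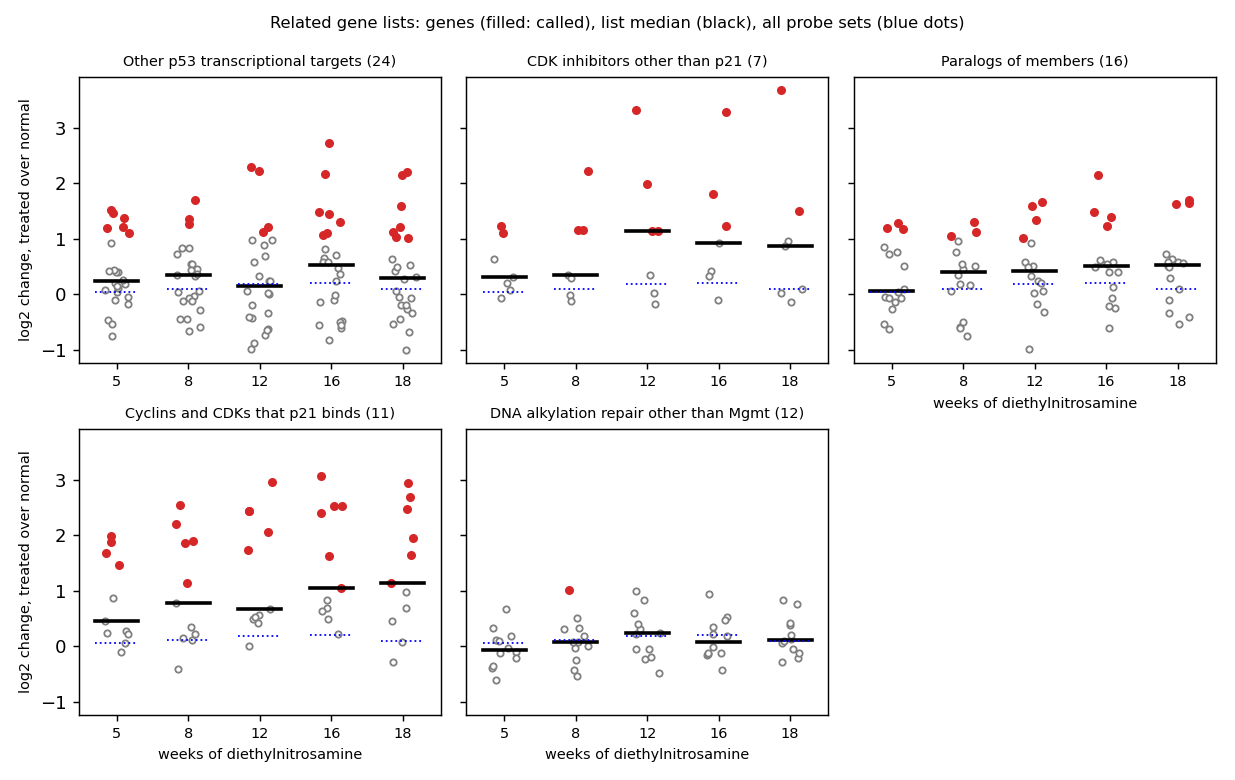
Log2 change over normal liver (vertical axis) at 5 to 18 weeks of diethylnitrosamine (horizontal axis) for 5 lists of related genes, with 1 point per gene and the number of tested genes in each title. Filled red points were called, black bars are list medians and blue dotted bars the median of all 18625 probe sets. No gene of the 5 lists was called lower at any time on the deposited scale, while with arrays centred 5 calls at 12 weeks, 5 at 16 weeks and 1 at 18 weeks were lower. Btg1 stands in both the p53 target list and the paralog list and is counted in each at 12 and 16 weeks. With quantile normalization 2, 1 and 1 calls were lower at 12, 16 and 18 weeks.

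Cell type markers moved over the same weeks. All 8 hepatocyte markers were measured, and their summed signal ranged from 230317 to 242072 at 5 weeks, from 171998 to 205862 at the later times and from 263844 to 303915 in normal liver, with 1 of the 8 called lower (Cyp2c11) at 12, 16 and 18 weeks, and 5 of 8 at 16 weeks with arrays centred. Their median change depended on scaling. It was -0.25 to -0.59 on the deposited scale and -0.01 to 0.04 with quantile normalization, where Cyp2c11 alone was called lower. The summed signal of 6 cholangiocyte and progenitor markers was 2278 to 2479.5 at 5 weeks and 13954 to 15153 at 16 weeks, against 1509 to 1580.1 in normal liver, with 0 of 6 called at 5 weeks and 6 of 6 from 12 weeks on. For 8 stellate cell and myofibroblast markers it was 3815 to 3947 at 5 weeks and 10678 to 10888 at 16 weeks, against 1932 to 2142 in normal liver, and for 6 mitotic markers 2140.3 to 2319 and 3469 to 3549, against 653 to 858. At 5 weeks 2 of the 8 stellate cell and 4 of the 6 mitotic markers were called higher. Of 7 macrophage, 4 lymphocyte and 6 endothelial markers tested, at most 1 was called higher and 2 lower against normal liver in any list at any time. Across the 5 times, 5.18% to 15.7% of all probe sets were called higher and 2.55% to 5.26% lower. The lowest group mean of a tested marker was 6.4, under the filter level of 94.4, so a marker could pass the filter through groups where it was high. The size of a change from such a level depends on the pseudocount. Sox9 was under the filter. The part of these markers in the changes of the 9 genes was not tested.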

How the data were processed

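Affymetrix rat whole-genome arrays, 18 in all, were run on total RNA from liver in 6 groups. The deposited value table holds an intensity for each probe set on each array, on a linear scale, processed by the authors with GCOS 2.0, per the submitters' processing notes; the scaling target is not given in the sources used here. A deposited workbook repeats these intensity values and gives, per the file headers, log2 ratios and linear ratios of treated to normal arrays made by the authors. Its 15 treated columns equalled the value table within 0.1, while its 3 normal columns had their rows out of order and were not used. The files give no detection calls. Array totals were 22315328 to 26401516 and median signals 123 to 187, and precision is limited by the number of arrays.

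Signals were taken as log2(signal + 16), which understates the change of dim probe sets. Of 31042 probe sets that are not controls, 18625 had a mean above the percentile of 40 and were fitted together in limma 3.58.1 (R 4.3.3, two-sided tests, all 6 groups in 1 fit, tested on simulated data). Calls needed a Benjamini-Hochberg adjusted p under 0.05 and 2-fold. Replicate numbers did not pair the arrays (same-number r of -0.067 to 0.164), so no block was used. The 9 genes and the lists were chosen with earlier results of these data known. Named list genes are the up to 4 called genes of each list with the largest mean change, and genes most alike are those with the highest r. Some results that this rule covers are not reported here. Python 3.11.15 (numpy 2.4.6, pandas 2.3.3, matplotlib 3.10.9) made the tables and plots. As alternatives, arrays were median centred or quantile normalized, and pseudocounts of 64 and 1 were used. The filter was dropped or set at the percentile of 60, the fold threshold was dropped or set at 3, and 1 probe set per gene was kept. The model was refitted with a replicate block, with robust trended variance, with the compared groups alone and without each array, and set against the authors' deposited log2 ratios. Leaving out the 8 week arrays and comparing probe sets within a gene were chosen after seeing the data.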

Additional observations from a re-analysis of the deposited data

Results flagged for a closer look

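A test of the difference between successive times singled out 6 changes. At 8 against 5 weeks, Btg2 1386995_at (-1.15), Cdkn1a 1387391_at (-1.23) and Sesn1 1395809_at (-1.26) were lower. At 12 against 8 weeks, Mdm2 1383485_at (1.54) and Sesn1 1395809_at (1.76) were higher and Cdkn1a 1388674_at (-1.03) was lower. The call of Cdkn1a 1388674_at was lost with quantile normalization and without 12 week replicate 1. All 6 involve the 8 week arrays, whose Gapdh 3′ to 5′ ratio averaged 2.12, against 1.23 to 1.48 at the other treated times, and the part of that ratio in these changes was not tested.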

How the results depend on the processing

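Over 2200 recomputed changes of member probe sets, 0 called changes reversed, 40 lost their call and 6 gained one, and of the 75 changes compared with the authors' deposited log2 ratios 27 moved by more than the spread between arrays. With a fold threshold of 3 the calls against normal liver were 3, 5, 3, 5 and 3 at the 5 times in order, against 9, 9, 10, 11 and 12 at 2-fold, and those between times were 0 at 8 against 5 weeks and 1 at 12 against 8 weeks, against 3 and 3. Over all 18625 probe sets, 254, 422, 938, 1280 and 761 were higher and 128, 376, 284, 338 and 288 lower than normal liver at 3-fold. At 8 against 5 weeks 57 of all were higher and 88 lower, and at 12 against 8 weeks 457 and 96. Median centring left 6 calls at 12 weeks. With 1 probe set per gene, which tests 9 probe sets by construction, there were 6, 7 and 7 calls at 12, 16 and 18 weeks, 0 at 8 against 5 weeks, 1 at 12 against 8 weeks and 1 among the treated times, against 5. With no fold threshold, 9, 13, 5 and 4 probe sets passed in the 4 successive steps. Over all 18625 probe sets, 3224, 5371, 2501 and 2637 were then higher and 2844, 3939, 1915 and 4030 lower. Without the 8 week arrays 2 varied among the treated times, and the part of those arrays' RNA ratios was not tested. With each array left out in turn, the counts against normal liver were 8 to 10, 8 to 9, 9 to 10, 10 to 11 and 11 to 12, those at 8 against 5 weeks 3 to 3, at 12 against 8 weeks 2 to 3, at the later steps 0 to 0 and among the treated times 5 to 5. Normal replicate 1 decided the most calls: without it 6 were lost and 1 was gained (Sesn1 1395809_at at 16 weeks, -1.0022). The fit with a replicate block changed none of the 75 member calls and left the counts at 9, 9, 10, 11 and 12. Signals near 0 limit Cdkn2a in normal liver and the untested Fas probe set, and no detection calls were used here.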
